A study of Mus musculus with 564 samples.

Results

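The Ms4a genes of mouse chromosome 19 encode small proteins that cross the cell membrane several times. They were followed here by H3K27ac, the acetylation of lysine 27 on histone H3 that marks promoters and enhancers in use. The cluster was taken as 8 genes: Ms4a8a, Ms4a7, Ms4a4a, Ms4a4c, Ms4a4b, Ms4a6c, Ms4a6b and Ms4a6d. A cis-regulatory element (CRE) of the deposited table was counted as a member when its centre lay within 25 kb of an annotated RefSeq transcription start of 1 of these genes in the mouse build mm10. This gave 44 of 59190 CREs, 5 for Ms4a8a, 7 for Ms4a7, 6 for Ms4a4a, 3 each for Ms4a4c, Ms4a4b and Ms4a6c, 8 for Ms4a6b and 9 for Ms4a6d, each CRE being given to the nearest start among these 8 genes. For 34 members the nearest coding start of any gene belonged to the cluster and for 10 to another gene, among them Gm8369, Ms4a4d and Ms4a14, so that the counts by gene below rest on this assignment. They lie between chr19:11059343 and chr19:11630556, and each is named below by its distance from that start, upstream or downstream in the direction of transcription.

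All samples were bone marrow-derived macrophages (BMDMs) of wild-type C57BL/6 male mice of 6 to 8 weeks, primary cells grown out of bone marrow. They were pre-treated for 1 h with DMSO, the vehicle, or with a clinical kinase inhibitor (CKI), of which there were 58. Unstimulated cells (UT) were compared with cells given lipopolysaccharide (LPS) or interleukin 4 (IL-4), each at 10 ng/mL, for 30 min, 1 h, 2 h or 4 h. Of the 564 H3K27ac ChIP-seq libraries, 18 were from DMSO cells, in 9 groups of 2 replicates, and 546 from CKI cells, with 474 groups of 1 library and 36 groups of 2. The labels do not say whether replicates came from separate animals or cultures, so p-values measure the spread between these libraries, which may be technical.

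In the library totals of the deposited normalized read counts, which ranged from 4066894 to 12391409, DMSO libraries lay between 5923684 and 6873668. These totals are scaled and do not give the sequencing depth. CKI libraries had a lower contrast between strong and weak CREs than DMSO libraries. The median of the strongest 10% of CREs over that of the weakest 10% was 53.0 to 134 in DMSO libraries and 3.34 to 67.2 in CKI libraries, and its median over 6 consecutive runs of columns of CKIs ranged from 11.2 to 35.1. CREs sat within 1 kb of the start of 8 of 8 macrophage marker genes, among them Csf1r and Spi1, and of 0 of 4 T cell, 0 of 4 mast cell and basophil, 1 of 5 B cell, 2 of 5 neutrophil and 1 of 3 dendritic cell marker genes. In such bulk samples, fewer cells carrying the mark and less of the mark per cell cannot be told apart.

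As background, LPS acts through Toll-like receptor 4, which activates NF-kB and AP-1 within minutes and interferon regulatory factors somewhat later, followed by the response to secreted interferon beta. IL-4 acts through Janus kinases (JAKs) on STAT6. In the Ms4a family, Ms4a1 encodes the B cell protein CD20 and Ms4a2 a chain of the high-affinity IgE receptor of mast cells. Ms4a4a and Ms4a7 are known from macrophages, and Ms4a4b from T cells. The factors named above bind short DNA words, and the sequences of the elements are therefore shown with these words marked.

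The sequences of 2 of the 3 elements with the largest rises after IL-4 are shown first, each from the centre of the element on the plus strand of mm10 (RefSeq assembly GRCm38.p6). Capitals mark matches to the STAT6 word TTCNNNNGAA and, in the first sequence, also to the STAT word TTCNNNGAA. They come from chr19:11629658-11629865, which lies in and beside a coding exon of Ms4a3 and is shortened to leave out untranslated bases, and from chr19:11355717-11356016, which is intergenic.
Ms4a6d 24.9 kb upstream: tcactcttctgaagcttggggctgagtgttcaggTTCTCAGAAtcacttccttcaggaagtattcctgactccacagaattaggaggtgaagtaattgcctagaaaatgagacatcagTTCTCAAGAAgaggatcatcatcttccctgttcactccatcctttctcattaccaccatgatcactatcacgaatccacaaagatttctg
Ms4a4a 19.6 kb upstream: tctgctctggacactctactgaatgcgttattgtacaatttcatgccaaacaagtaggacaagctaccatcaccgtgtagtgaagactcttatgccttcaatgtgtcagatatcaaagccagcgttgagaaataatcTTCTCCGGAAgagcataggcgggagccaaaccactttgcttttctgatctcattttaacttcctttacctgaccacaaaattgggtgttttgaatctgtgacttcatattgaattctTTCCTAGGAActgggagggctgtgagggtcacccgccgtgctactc

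The next sequences come from 4 elements that rose after LPS, of which the first 2 are among the 3 with the largest rises and the other 2 resemble each other. The first holds none of the words searched and has no capitals. In the others capitals mark the interferon-stimulated response element (ISRE) core GAAANNGAA on either strand and, at 9.3 kb downstream of Ms4a6b, also a run in which a STAT6 word and an AP-1 word, TGANTCA, share 4 bases. The coordinates are chr19:11583840-11584139 (intergenic), chr19:11527680-11527979 (intron of Ms4a6b), chr19:11494606-11494905 (intron of Gm8369) and chr19:11540181-11540480 (intron of Ms4a4d), all on the plus strand.
Ms4a6d 20.8 kb downstream: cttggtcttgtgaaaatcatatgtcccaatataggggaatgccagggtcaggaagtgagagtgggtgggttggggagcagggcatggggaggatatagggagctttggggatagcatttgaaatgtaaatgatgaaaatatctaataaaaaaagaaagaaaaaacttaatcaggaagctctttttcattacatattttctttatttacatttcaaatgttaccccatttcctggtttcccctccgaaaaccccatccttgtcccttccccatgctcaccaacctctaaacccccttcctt
Ms4a6b 9.3 kb downstream: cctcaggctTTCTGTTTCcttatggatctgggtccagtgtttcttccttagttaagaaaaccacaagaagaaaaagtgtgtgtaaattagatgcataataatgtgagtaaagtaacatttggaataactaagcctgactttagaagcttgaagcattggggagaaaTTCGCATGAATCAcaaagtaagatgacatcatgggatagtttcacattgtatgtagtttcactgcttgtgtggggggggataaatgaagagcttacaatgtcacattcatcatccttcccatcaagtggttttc
Ms4a6b 23.8 kb upstream: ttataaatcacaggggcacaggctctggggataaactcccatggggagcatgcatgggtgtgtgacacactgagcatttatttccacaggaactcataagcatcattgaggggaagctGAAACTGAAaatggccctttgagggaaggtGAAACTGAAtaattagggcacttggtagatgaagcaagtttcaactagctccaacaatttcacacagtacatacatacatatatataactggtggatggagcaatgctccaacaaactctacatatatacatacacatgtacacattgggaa
Ms4a6b 21.8 kb downstream: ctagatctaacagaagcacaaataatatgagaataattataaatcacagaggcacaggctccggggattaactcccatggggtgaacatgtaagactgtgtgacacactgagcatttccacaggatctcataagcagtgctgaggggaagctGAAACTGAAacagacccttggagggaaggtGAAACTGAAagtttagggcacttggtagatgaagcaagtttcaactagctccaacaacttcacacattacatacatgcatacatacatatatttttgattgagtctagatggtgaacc

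Each of the last 2 windows held 2 ISRE cores with the same 9 letters, 21 bases apart. Over 257 aligned bases these windows were 86.0% identical, with a longest shared run of 45 bases. Reads were trimmed to 51 bases, which is longer than this run, so no read matches both windows in full. Counted over the whole element, 12.2% and 16.0% of the words of 51 bases occurred elsewhere in the genome. Whether these words recur in the other element of the pair was not tested. Over the 44 members this share was 0% to 35.7% with a median of 2.78%, was above 10% in 6 and was 0 in 11.

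The stretch before 3 starts is shown because these starts follow different courses below (RefSeq promoters, 5′ to 3′ in the direction of transcription), with only ISRE cores in capitals. They are chr19:11336147-11336396 on the minus strand for Ms4a7, chr19:11469118-11469352 on the plus strand for Ms4a6c and chr19:11518309-11518558 on the plus strand for Ms4a6b.
Ms4a7 promoter: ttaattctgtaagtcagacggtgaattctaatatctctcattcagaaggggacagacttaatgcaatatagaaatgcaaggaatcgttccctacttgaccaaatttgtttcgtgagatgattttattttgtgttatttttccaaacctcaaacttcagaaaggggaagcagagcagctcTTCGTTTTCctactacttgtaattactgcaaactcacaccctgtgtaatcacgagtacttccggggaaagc
Ms4a6c promoter: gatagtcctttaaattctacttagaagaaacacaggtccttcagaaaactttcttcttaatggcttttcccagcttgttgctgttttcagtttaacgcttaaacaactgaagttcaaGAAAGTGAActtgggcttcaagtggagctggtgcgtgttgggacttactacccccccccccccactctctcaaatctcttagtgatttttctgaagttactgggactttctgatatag
Ms4a6b promoter: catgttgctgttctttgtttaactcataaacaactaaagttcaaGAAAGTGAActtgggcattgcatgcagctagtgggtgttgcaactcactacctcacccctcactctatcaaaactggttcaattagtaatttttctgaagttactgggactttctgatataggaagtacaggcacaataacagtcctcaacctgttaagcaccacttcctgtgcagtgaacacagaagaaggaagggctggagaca

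The Ms4a6c and Ms4a6b promoters held the same 9-letter ISRE core, 118 and 206 bases before their starts. Over 160 aligned bases they were 84.4% identical, with a longest shared run of 34 bases. In the Ms4a7 promoter the core lay 71 bases before the start, and a STAT6 word lay 13 bases before it. RefSeq promoters of 300 bases were matched for 7 of the 8 genes. Over all 32851 such promoters, 8.56% held the ISRE core and 6.95% the STAT6 word.

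Across the central 300 bases of all members, on both strands, the STAT6 word was found in 9 of 44, against 9.22% of the windows of all 59190 CREs. For the ISRE core it was 6 of 44 against 11.5%, for the AP-1 word 7 of 44 against 20.2%, and for the STAT word TTCNNNGAA 4 of 44 against 9.4%. A C/EBP word was found in 11 of 44 against 14.7%, a PU.1 word in 3 of 44 against 9.11% and an NF-kB word in 3 of 44 against 5.98%. The STAT6 word had 2 matches each at 19.6 kb upstream of Ms4a4a and 24.9 kb upstream of Ms4a6d, and the shortened sequence of the latter shows 1 of its 2. It was also present in the promoter of Ms4a7, where neither time course was called. A further match lay in the Ms4a6b promoter. The window with the largest LPS rise, 20.8 kb downstream of Ms4a6d, held none of these 7 words, which were all that were searched. A match describes letters only and was not tested as a binding site.

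LPS changed H3K27ac over most of the cluster. A time course was called when the moderated F-test of limma over the 4 times gave an adjusted p under 0.01 and the absolute log2 difference from UT exceeded 1 at 1 or more times. In the 10 DMSO libraries of UT and LPS, 43 of the 44 members passed the filter on low values and 38 were called, against 53.5% of all CREs tested. The largest difference was a rise in 30 members and a fall in 8, against 29.0% and 24.5% of all CREs tested. All log2 differences are on the log2(value + 5) scale, which understates the change of low elements.

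In the medians of the members, the LPS response came in 2 phases. The early fall was not common to all. At 30 min 16 of the 43 tested members were above UT, and no element of Ms4a6c or Ms4a6d was lower by more than 1. At 30 min, 14 called members were lower than UT by more than 1 on the log2 scale, against 13.2% of all CREs tested, and the median difference of the members was -0.62, against 0.05 for all CREs tested. By 2 h, 30 were higher by more than 1, against 21.2%, and at 4 h again 30, against 20.4%. The median difference of the members was 0.27 at 1 h, 1.52 at 2 h and 1.66 at 4 h, while that of all CREs tested stayed between 0.02 and 0.09 at these times. In 9 members a fall by more than 1 at 30 min was followed by a rise by more than 1 at 2 h or 4 h, a sequence found at 0.475% of all CREs tested. These were 2 elements of Ms4a4a, 2 of Ms4a4c, 2 of Ms4a4b and 3 of Ms4a6b, a grouping made after the values were seen. The 3 of Ms4a6b, at 21.2 kb upstream and 15.1 kb and 21.8 kb downstream, had Gm8369 or Ms4a4d as nearest coding start. At 21.8 kb downstream the replicates were 144 and 107 in UT and 30 and 91 at 30 min. At 21.2 kb upstream the means were 83.5 in UT and 39 at 30 min. Both of these falls lay near the threshold.

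**Figure D1:**
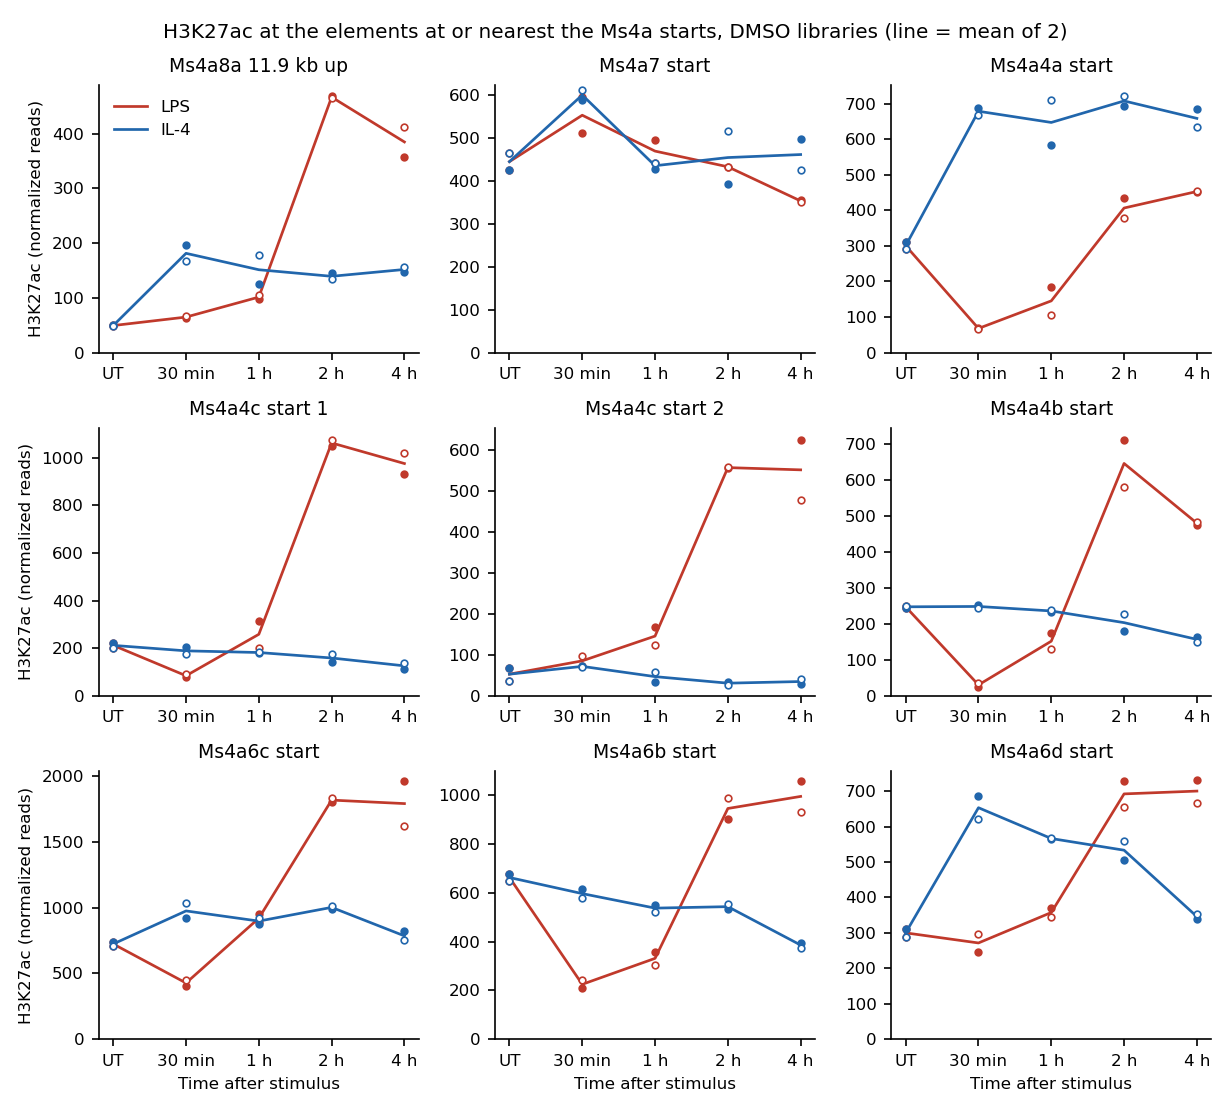
H3K27ac (normalized read counts, vertical axes from 0) in DMSO libraries over time at the 9 elements at or nearest the Ms4a starts, with LPS in red and IL-4 in blue, replicate 1 as filled and replicate 2 as open circles, and the mean of 2 as a line. At the Ms4a4a, Ms4a4b and Ms4a6b starts the LPS values at 30 min lie below all UT values, and at the first Ms4a4c start the LPS values at 2 h, 1048 and 1076, lie above all IL-4 values.

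The fall at 30 min was deepest at the Ms4a4b start (chr19:11446630-11448225, in an intron of the longer transcripts, 0.1 kb from an internal start). H3K27ac there was 245 and 250 in the UT replicates, 25 and 36 after 30 min of LPS, 175 and 129 after 1 h, 711 and 581 after 2 h and 476 and 484 after 4 h. The 30 min values were below and the 2 h and 4 h values above every UT value, and replicates of these groups did not overlap with UT. The log2 difference was -2.85 ± 0.17 (SE, 2 libraries a group) at 30 min and 1.36 at 2 h (adjusted p of the time course 1.09e-20).

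Ms4a4a, a macrophage gene of the family, lost H3K27ac at its start in the same early interval. The element (chr19:11374667-11377452, centre 0.6 kb downstream in an intron) held 311 and 290 in UT, 69 and 67 at 30 min, 184 and 107 at 1 h, 435 and 378 at 2 h and 452 and 454 at 4 h. At 30 min both replicates were below UT, and at 2 h and 4 h both were above. It differed from UT by a log2 value of -2.06 ± 0.17 at 30 min and 0.59 at 4 h (adjusted p = 8.59e-16), so that the later rise stayed below the threshold of 1 at the start. Upstream of the gene it exceeded the threshold. The element 5.1 kb upstream went from 28 and 27 in UT to 232 and 239 at 2 h and 322 and 309 at 4 h, a log2 difference of 3.30 ± 0.28 at 4 h (adjusted p = 3.03e-16). All 6 Ms4a4a elements were called after LPS.

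A fall without a later rise over the threshold was seen at the element 21.0 kb upstream of Ms4a8a (chr19:11101232-11102889, in an intron of the neighbour Ms4a20). Its values were 155 and 147 in UT, 36 and 25 at 30 min, 57 and 35 at 1 h, 195 and 179 at 2 h and 200 and 207 at 4 h. The log2 difference was -2.15 ± 0.22 at 30 min and 0.42 at 4 h (adjusted p = 7.50e-14). Both early times were below UT in each replicate and both late times slightly above it.

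The Ms4a6b start (chr19:11516709-11519386, centre 0.5 kb upstream) fell from 677 and 648 in UT to 208 and 241 at 30 min and 359 and 303 at 1 h. It then reached 902 and 989 at 2 h and 1057 and 933 at 4 h. With log2 differences of -1.54 ± 0.12 at 30 min and 0.58 at 4 h, it was called by its fall (adjusted p = 1.84e-18). The element 4.9 kb upstream of Ms4a6b (chr19:11512848-11514528, intergenic) held 258 and 268 in UT and 104 and 133 at 30 min, a log2 difference of -1.13 ± 0.17 (adjusted p = 2.87e-13). Without replicate 1 of the 30 min group this was -0.96, and the element was no longer called.

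The first Ms4a4c start (chr19:11403823-11406128, centre 0.2 kb downstream) followed the same course with a larger late rise. It held 223 and 201 in UT, 79 and 90 at 30 min, 316 and 201 at 1 h, 1048 and 1076 at 2 h and 930 and 1021 at 4 h. All stimulated values at 30 min were below and at 2 h and 4 h above the UT values. On the log2 scale it differed from UT by -1.28 ± 0.15 at 30 min and 2.30 at 2 h (adjusted p = 3.27e-21).

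At the second Ms4a4c start (chr19:11406817-11408478, in an intron of the longer transcript), no fall was measured at 30 min. The element held 69 and 37 in UT, 74 and 97 at 30 min, 168 and 124 at 1 h, 556 and 559 at 2 h and 625 and 479 at 4 h. The log2 difference was 0.69 ± 0.20 at 30 min and 3.33 at 2 h (adjusted p = 1.22e-17). The 2 starts of this gene had opposite signs at 30 min, and this difference between elements was not tested.

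Ms4a6c had the element with the highest mean over the DMSO libraries, 1038, which is also the widest member at 3747 bp (chr19:11467708-11471454, centre 0.2 kb downstream). Its values were 741 and 707 in UT, 404 and 450 at 30 min, 951 and 889 at 1 h, 1803 and 1835 at 2 h and 1963 and 1622 at 4 h. The replicates at 30 min were below UT and those at all later times above it. The difference from UT was, in log2, -0.76 ± 0.10 at 30 min and 1.32 at 2 h (adjusted p = 4.38e-20). Immediately upstream, the element 3.5 kb from the start (chr19:11464156-11467501) rose without a fall, from 321 and 296 in UT to 1612 and 1613 at 2 h, with a log2 difference of 2.37 ± 0.12 (adjusted p = 2.64e-20). In that element 12.6% of the words of 51 bases occurred elsewhere in the genome.

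**Figure D2:**
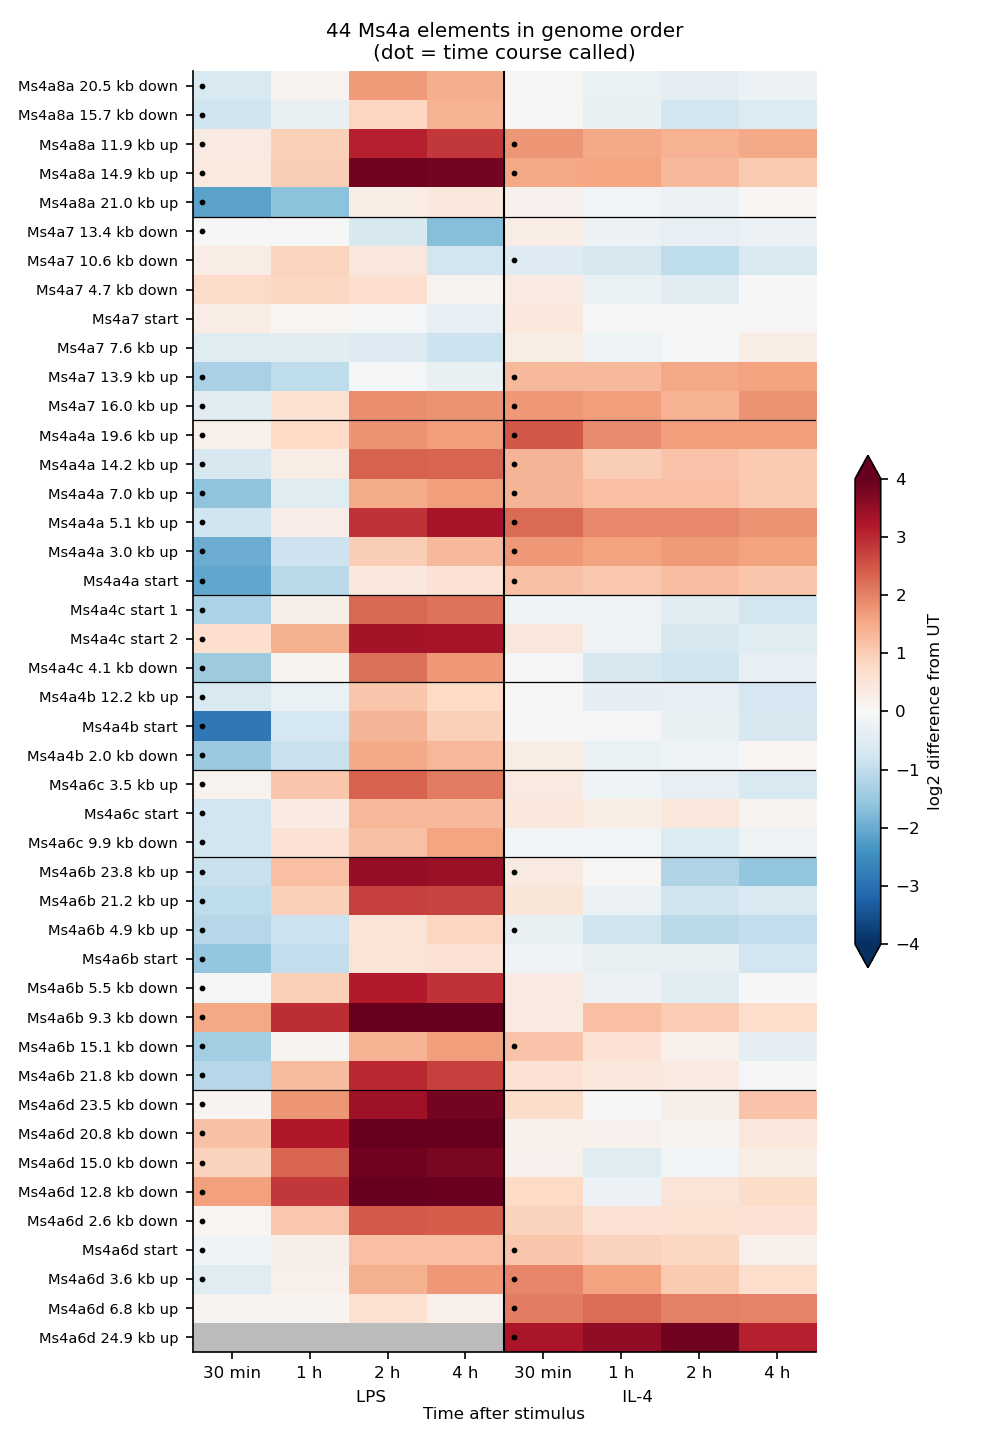
Log2 difference from UT in DMSO libraries (colour, red higher and blue lower, scale cut at 4 in either direction) for the 44 members in genome order (rows, grouped by gene) at 4 times after LPS and after IL-4 (columns). A dot marks a called time course, 38 after LPS and 18 after IL-4, and grey marks the element that was not tested after LPS.

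The largest LPS rises lay in the 3′ flank and the introns of Ms4a6d and Ms4a6b. At the element 20.8 kb downstream of the Ms4a6d start (chr19:11582980-11585000, intergenic), H3K27ac was 8 and 11 in UT, 36 and 21 at 30 min, 142 and 113 at 1 h, 414 and 345 at 2 h and 552 and 464 at 4 h. Both replicates were above UT at every time, and the 4 h values were the highest. The log2 difference was 5.15 ± 0.22 at 4 h (adjusted p = 4.18e-21), the largest among the members. The 4 elements between 12.8 kb and 23.5 kb downstream of the Ms4a6d start, this one included, rose by 3.38 to 4.73 at 2 h.

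The element 9.3 kb downstream of the Ms4a6b start (chr19:11527034-11528627, intron) went from 3 and 7 in UT to 23 and 24 at 30 min, 65 and 79 at 1 h, 278 and 220 at 2 h and 235 and 204 at 4 h, a log2 difference of 4.69 ± 0.25 at 2 h (adjusted p = 2.24e-18). The element 12.8 kb downstream of the Ms4a6d start (chr19:11591181-11592882, intron) went from 8 and 7 in UT to 41 and 28 at 30 min, 110 and 62 at 1 h, 197 and 202 at 2 h and 171 and 206 at 4 h, a log2 difference of 4.03 ± 0.26 at 2 h (adjusted p = 3.34e-16). These 2 elements and the one 20.8 kb downstream of Ms4a6d were the 3 members already higher by more than 1 at 30 min. The Ms4a6d start itself (chr19:11603939-11605620, 5′ untranslated exon) rose less, from 311 and 289 in UT to 729 and 656 at 2 h and 733 and 668 at 4 h, with a log2 difference of 1.21 ± 0.12 at 4 h (adjusted p = 2.02e-13).

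Towards Ms4a8a, the cluster held further LPS rises. No CRE lay within 1 kb of the Ms4a8a start, and the nearest, 11.9 kb upstream (chr19:11091394-11094576, intergenic), went from 50 and 49 in UT to 63 and 67 at 30 min, 98 and 105 at 1 h, 469 and 465 at 2 h and 357 and 413 at 4 h. Replicates lay closely together, and the log2 difference was 3.11 ± 0.17 at 2 h (adjusted p = 7.96e-19). In this element 20.0% of the words of 51 bases were repeated elsewhere.

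Of Ms4a7, a macrophage gene between Ms4a8a and Ms4a4a, 3 of 7 elements were called after LPS. Of Ms4a6d it was 7 of 8, without the one 6.8 kb upstream, and of the other 6 genes every tested element. The Ms4a7 start (chr19:11335275-11337021) held 425 and 464 in UT, 510 and 595 at 30 min, 496 and 442 at 1 h, 433 and 432 at 2 h and 355 and 351 at 4 h. It differed from UT by a log2 value of 0.31 ± 0.12 at 30 min and -0.33 at 4 h (adjusted p = 4.92e-04), below the threshold of size at every time. The element 10.6 kb downstream (chr19:11323086-11325083, intron) reached 405 and 358 at 1 h from 208 and 195 in UT, a log2 difference of 0.90 ± 0.16, and was also below the threshold. The element 13.4 kb downstream, at the 3′ end of Ms4a7, was called by a fall to 52 and 67 at 4 h from 197 and 210 in UT (log2 difference -1.70 ± 0.19, adjusted p = 4.67e-10).

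Fewer members were called after IL-4, and 10 of the 15 rises lay near Ms4a4a and Ms4a6d. In the 10 DMSO libraries of UT and IL-4 all 44 members were tested and 18 were called, against 24.7% of all CREs tested. The largest difference was a rise in 15 and a fall in 3, against 13.6% and 11.0%. The 15 were already higher by more than 1 at 30 min, against 10.7% of all CREs tested. The median difference of the members was 0.43 at 30 min, -0.01 at 1 h, 0.06 at 2 h and 0.10 at 4 h, against 0.09, 0.03, -0.03 and 0.05 for all CREs tested.

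The called IL-4 rises were 6 of 6 elements of Ms4a4a, 4 of 9 of Ms4a6d, 2 of 7 of Ms4a7, 2 of 5 of Ms4a8a and 1 of 8 of Ms4a6b (15.1 kb downstream, lost without replicate 2 of the 30 min group). No element of Ms4a4c, Ms4a4b or Ms4a6c was called, 9 elements in all. Their largest differences over the 4 times lay between -0.81 and 0.47, and 6 of these 9 passed at a threshold of 0.5. How many of all CREs passed at 0.5 is not given. Without replicate 2 of UT, the second Ms4a4c start differed by -1.05 and was called.

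The Ms4a4a start was higher at every time after IL-4. It went from 311 and 290 in UT to 689 and 668 at 30 min, 583 and 711 at 1 h, 694 and 721 at 2 h and 684 and 633 at 4 h. All 8 stimulated values were well above both UT values from the earliest time on. The log2 difference was 1.22 ± 0.10 at 2 h (adjusted p = 4.10e-16). The element 3.0 kb upstream (chr19:11371637-11373339, intergenic), named after its values were seen, rose from 164 and 182 to 579 and 595 at 30 min and still held 561 and 511 at 4 h, a log2 difference of 1.74 ± 0.11 at 30 min (adjusted p = 1.99e-20).

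Further upstream of Ms4a4a, the element 19.6 kb from the start (chr19:11355040-11356695, intergenic), with 2 STAT6 words in its centre, held 22 and 19 in UT, 125 and 153 at 30 min, 79 and 103 at 1 h, 80 and 72 at 2 h and 83 and 69 at 4 h. It was highest at 30 min, with a log2 difference of 2.49 ± 0.22 (adjusted p = 9.53e-13). After LPS it held 89 and 79 at 2 h, a log2 difference of 1.80 ± 0.28. The element 5.1 kb upstream held 28 and 27 in UT and 142 and 162 at 30 min, then 90 and 153 at 1 h, 112 and 125 at 2 h and 83 and 142 at 4 h. Its log2 difference was 2.27 ± 0.21 at 30 min (adjusted p = 1.90e-12), and the replicates at 1 h and 4 h lay far apart but above UT.

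At the far end of the cluster, the element 24.9 kb upstream of Ms4a6d (chr19:11628877-11630556) had the largest IL-4 rise. Its centre lies in a coding exon of Ms4a3, a gene known from myeloid progenitors, and the nearest coding start is that of Ms4a2. It held 9 and 2 in UT, 77 and 106 at 30 min, 90 and 133 at 1 h, 129 and 148 at 2 h and 72 and 89 at 4 h. On the log2 scale it differed from UT by 3.85 ± 0.25 at 2 h (adjusted p = 3.41e-18). After LPS the element stayed at 3 to 12 over all 8 libraries and was not tested because its mean was under 10.

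The Ms4a6d start rose for a shorter time, from 311 and 289 in UT to 686 and 621 at 30 min, 565 and 568 at 1 h, 507 and 560 at 2 h and 340 and 352 at 4 h. At 4 h it was again close to UT, with a log2 difference of 0.20 ± 0.10 after 1.11 at 30 min (adjusted p = 2.20e-14). The element 11.9 kb upstream of Ms4a8a went from 50 and 49 to 196 and 167 at 30 min and 148 and 156 at 4 h, a log2 difference of 1.77 ± 0.17 at 30 min (adjusted p = 3.92e-12). At the Ms4a7 start the IL-4 values were 588 and 611 at 30 min and 497 and 425 at 4 h, and the largest log2 difference, 0.43 ± 0.11, was below the threshold.

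Falls after IL-4 were called at 3 elements. The element 23.8 kb upstream of Ms4a6b (chr19:11493821-11495691), shown above with its 2 ISRE cores, held 83 and 73 in UT, 93 and 108 at 30 min, 74 and 88 at 1 h, 35 and 28 at 2 h and 20 and 27 at 4 h, a log2 difference of -1.55 ± 0.24 at 4 h (adjusted p = 3.26e-10). The fall was late, and both replicates at 2 h and 4 h were below UT. The element 4.9 kb upstream of Ms4a6b fell to 105 and 141 at 2 h (log2 difference -1.08 ± 0.15, adjusted p = 3.18e-08), and the one 10.6 kb downstream of Ms4a7 to 78 and 120 at 2 h (-1.02 ± 0.17, adjusted p = 8.77e-05). These last 2 calls were lost without replicate 1 of the 2 h group, and the second also without replicate 1 of UT.

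**Figure D3:**
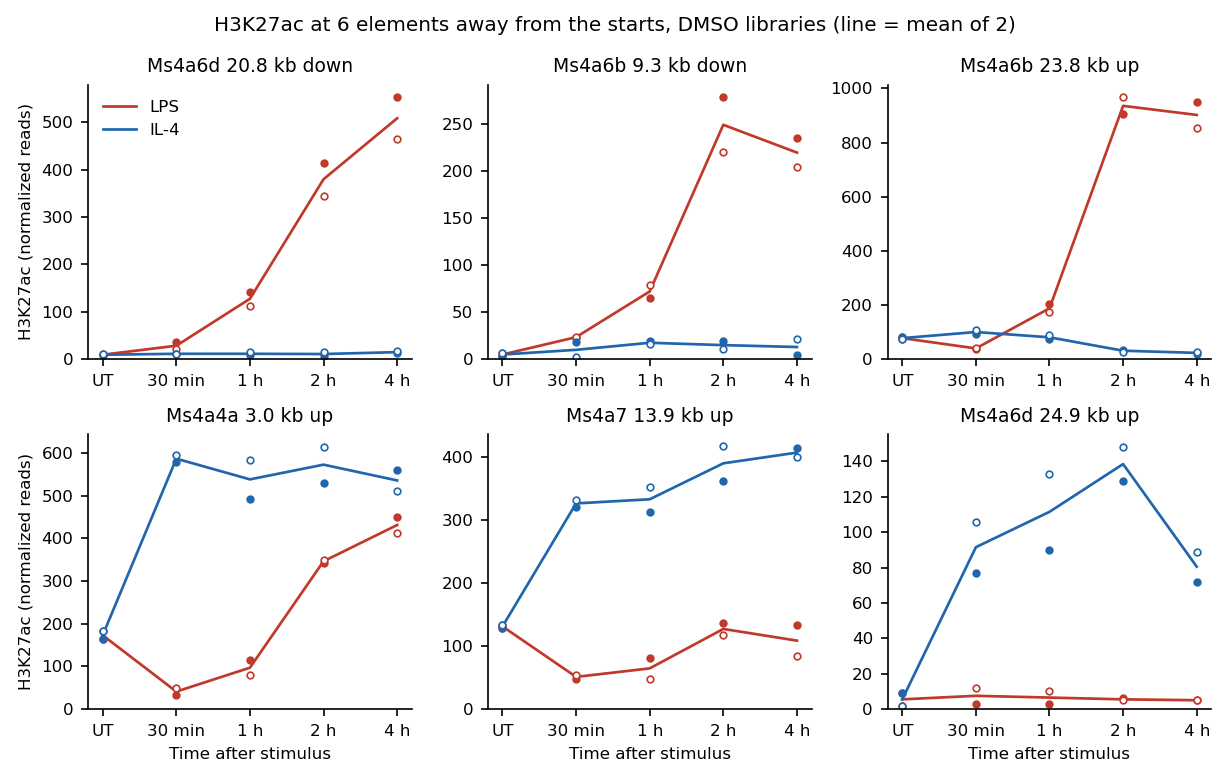
H3K27ac (normalized read counts, vertical axes from 0) in DMSO libraries over time at 6 elements away from the starts, with LPS in red and IL-4 in blue, replicate 1 as filled and replicate 2 as open circles, and the mean of 2 as a line. The Ms4a6d element 20.8 kb downstream stays at or below 17 after IL-4 and reaches 552 after LPS, and the one 24.9 kb upstream stays at or below 12 after LPS and reaches 148 after IL-4.

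Compared directly at matched times in the 18 DMSO libraries, LPS and IL-4 differed at 43 of the 44 members, against 58.4% of all CREs tested. The remaining element was the Ms4a7 start, where the largest difference between stimuli was -0.38 ± 0.12 at 4 h (adjusted p = 0.0363). The largest difference favoured LPS in 23 and IL-4 in 20 members, against 29.2% and 29.2% of all CREs tested. The direction changed with time. At 30 min, 25 members were higher after IL-4 by more than 1, against 17.3%, whereas 27 were higher after LPS at 2 h, against 22.1%, and 30 at 4 h, against 21.0%.

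The gap at 30 min was widest around Ms4a4a, where 6 of 6 elements were higher after IL-4 by more than 1. At the Ms4a4a start the LPS minus IL-4 difference was -3.23 ± 0.15 at 30 min and -0.53 at 4 h (adjusted p = 2.90e-24). In the other direction, the element 23.8 kb upstream of Ms4a6b differed by 4.69 ± 0.19 at 2 h and 5.0 at 4 h (adjusted p = 5.32e-29). At 4 h, 8 of 8 Ms4a6b elements, 3 of 3 each of Ms4a4c, Ms4a4b and Ms4a6c, and 0 of 7 Ms4a7 elements were higher after LPS by more than 1. Ms4a6b had the nearest coding start of any gene for only 3 members. The elements 6.8 kb and 24.9 kb upstream of Ms4a6d and 13.9 kb upstream of Ms4a7 remained higher after IL-4 by more than 1 at all 4 times.

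The 22 CREs of the other Ms4a genes of chromosome 19 belong to 10 of 13 genes on the list. After LPS 13 of 21 tested were called, against 53.5% of all CREs tested. The largest difference was a rise in 9 and a fall in 4, against 29.0% and 24.5%. After IL-4 9 of 20 were called, against 24.7%, with 4 rises and 5 falls, against 13.6% and 11.0%. LPS and IL-4 differed at 19 of 21, against 58.4%. Next to the cluster, an element 23.0 kb from the Ms4a4d start rose after LPS from a UT mean of 101.5 ± 23.3 (SD, n = 2) to 749.5 ± 37.5 at 2 h (log2 difference 2.84 ± 0.15). On the side of the B cell gene Ms4a1, the element 3.3 kb from its start fell after both stimuli, from 771 in UT to 233 at 30 min of LPS and 214 at 2 h of IL-4 (means of 2). Just outside the distance rule, an element 25.1 kb from the Ms4a8a start held means of 57 in UT and 647 at 2 h of LPS, and just inside it the element 23.8 kb from the Ms4a6b start held 78 and 936.

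By the shape of their DMSO time courses, measured by Pearson's correlation of log2 values over 9 group means and 11073 promoter CREs, the promoters most like the element 20.8 kb downstream of Ms4a6d were those of Lipg, Ifitm7, Cfb, Nos2 and Pggt1b (r = 0.995 to 0.991). These values describe 9 points that share libraries. They are the highest of 11073 correlations, so their size follows in part from this choice and does not mark these genes as related.

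The same elements were then followed in the CKI libraries, none of which entered the DMSO time courses. In a model with compound and time as factors, 31 of 44 members were called after LPS, against 28.9% of all CREs tested, 26 with a rise and 5 with a fall as the largest difference, against 15.4% and 13.5%. After IL-4, 12 were called, against 8.84%, of which 12 rose and 0 fell, against 5.33% and 3.5%. Within each of the 6 runs of columns alone, a split added after the data were seen, the counts were 31 to 39 after LPS and 7 to 17 after IL-4, where run 6 gave the 7. For these single runs the shares of all CREs are not given, so the counts cannot be set against them. Compounds stand in for replicates here, and the compounds are not replicates of a vehicle. None of the 6 runs holds a DMSO library. A difference between CKI and DMSO libraries therefore cannot be told apart from one between their blocks of columns.

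In the medians, the 2 phases after LPS remained, with smaller differences. The median difference of the members in CKI libraries was -0.34 at 30 min, 1.05 at 2 h and 1.18 at 4 h. For all CREs tested it was 0.12, 0.09 and 0.05. Of the members, 5 were lower by more than 1 at 30 min and 26 higher by more than 1 at 4 h. The shares of all CREs for these last counts are not given. A fall and a later rise, both over 1, were seen at 1 member, 3.0 kb upstream of Ms4a4a, and at 0.0507% of all CREs tested. CKI libraries also had the lower contrast given above, and its part in the smaller differences was not tested. All 6 Ms4a4a elements rose after IL-4 in CKI libraries too, as did the elements 11.9 kb upstream of Ms4a8a, 13.9 kb and 16.0 kb upstream of Ms4a7 and 3.6 kb, 6.8 kb and 24.9 kb upstream of Ms4a6d.

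**Figure D4:**
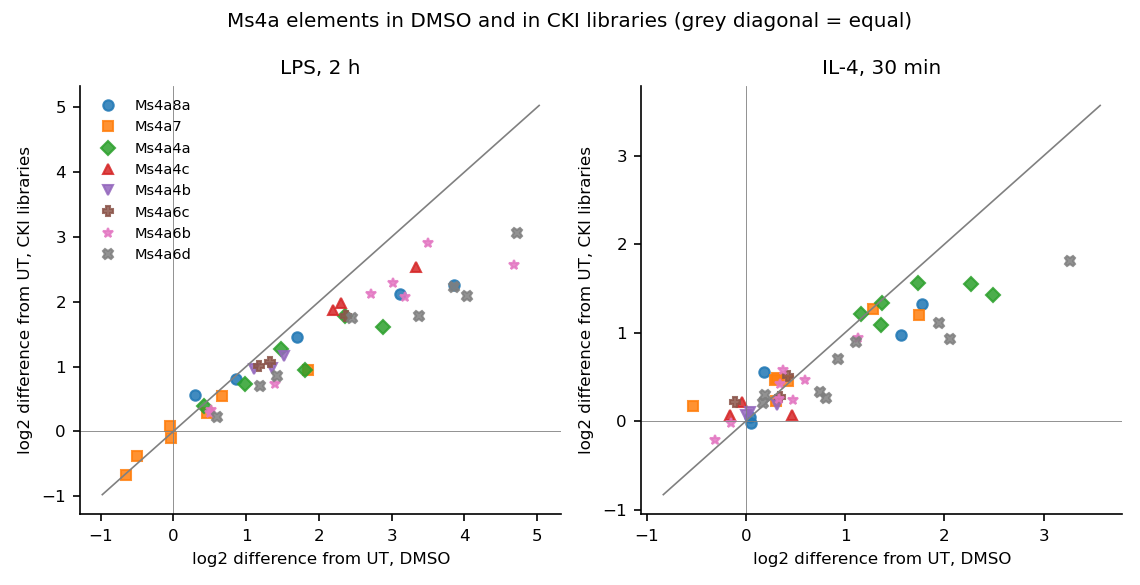
Log2 difference from UT in DMSO libraries (horizontal axis) and in CKI libraries (vertical axis) for the members at 2 h of LPS (43 members, left) and 30 min of IL-4 (44 members, right), with a symbol for each gene and the line of equal values in grey. Most of the larger rises lie below the line, such as the Ms4a6d element 20.8 kb downstream at 4.73 in DMSO and 3.06 in CKI libraries.

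The LPS rise at the element with the largest DMSO difference was seen under every CKI with a library. At the element 20.8 kb downstream of Ms4a6d, UT values of 55 CKIs with a library at 4 h ranged from 7 to 61 with a median of 22, and LPS values at 4 h from 118 to 449 with a median of 270. All 55 were higher than their own UT, while all 55 were lower than the DMSO mean of 508. The log2 difference ranged from 1.67 to 4.87 with a median of 3.37, and its median within runs from 3.10 to 3.61. The lowest values were those of OSI930 at 1.67, Bafetinib at 2.10 and Apatinib at 2.17, and the highest those of Refametinib at 4.87, Tofacitinib at 4.50 and the ONO4059 analogue at 4.32. The 3 lowest had UT values of 55 to 61 and the 3 highest of 7 to 12.

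At the Ms4a4b start all 58 CKIs were lower at 30 min of LPS than in their own UT. UT values ranged from 76 to 268 with a median of 132, and 30 min values from 0 to 95 with a median of 37. Vatalanib at 268 in UT and AZD2014 at 192 were listed at 0 at 30 min. The smallest falls were those of Tanzisertib (111 to 71), TG100115 (126 to 80) and Poziotinib (115 to 66). Medians within runs lay between -1.96 and -1.45. The DMSO difference was -2.85, with a higher UT level of 248.

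At the Ms4a4a start, the fall at 30 min of LPS was present in 56 of 58 CKIs, and the rise at 2 h of IL-4 in 56 of 56. IL-4 values ranged from 167 to 807 with a median of 400, against 707.5 in DMSO, and UT values from 71 to 351 with a median of 161, against 300.5. The 3 smallest log2 differences after IL-4 were those of SGX523 (0.17), Filgotinib (0.17) and Silmitasertib (0.37), and the 3 largest those of Lapatinib (2.29), Selumetinib (2.28) and Bafetinib (2.12). Most of these CKI groups hold 1 library and have no replicate error of their own. At the element 24.9 kb upstream of Ms4a6d, 55 of 56 CKIs were higher at 2 h of IL-4 than in UT, and Talmapimod was not (51 in UT and 46 after IL-4). SGX523, with the smallest log2 difference at the Ms4a4a start, had the largest there, with 6 in UT and 180 after IL-4.

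**Figure D5:**
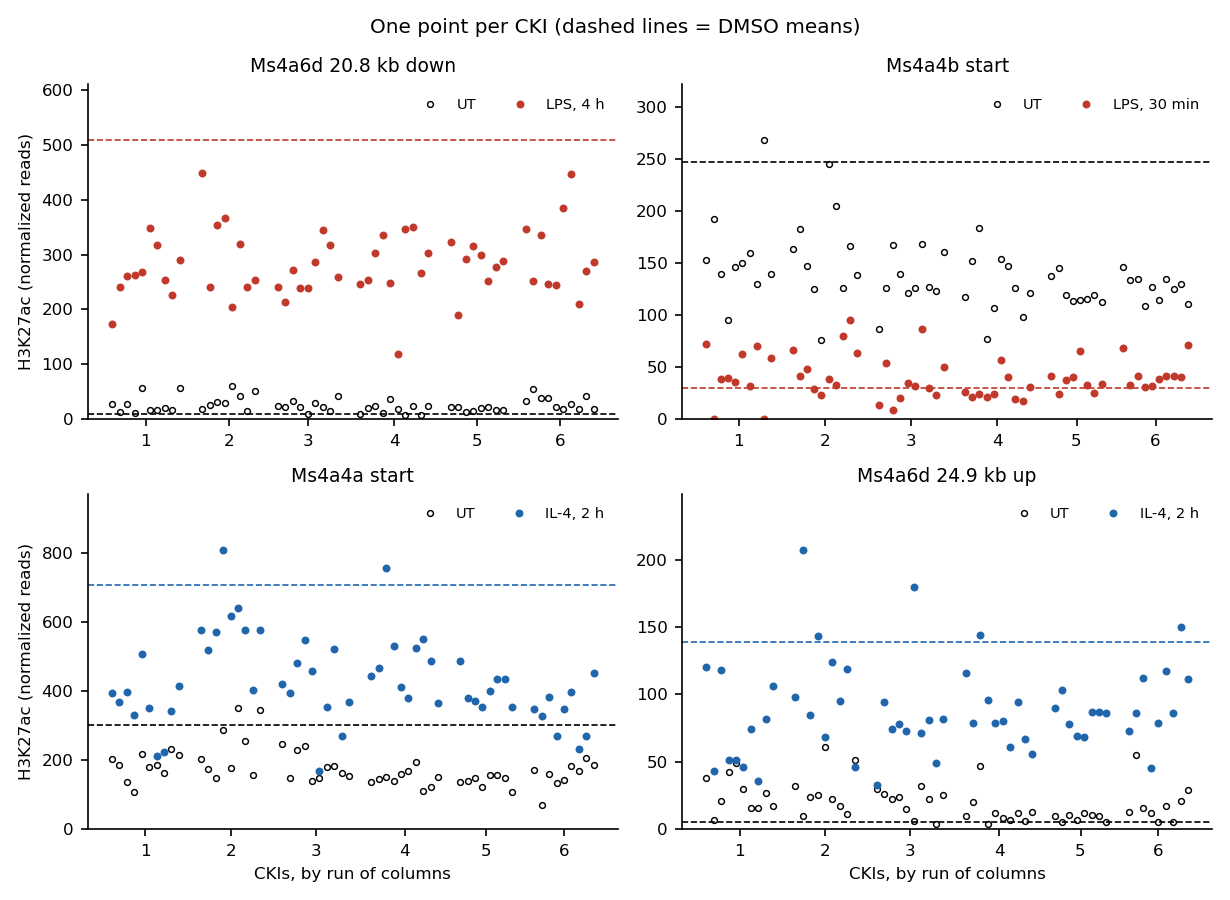
H3K27ac (normalized read counts, vertical axes from 0) of each CKI in UT (open circles) and after stimulus (filled circles, red for LPS and blue for IL-4) at 4 elements, with CKIs ordered by the 6 runs of columns on the horizontal axis and DMSO means as dashed lines. At the Ms4a6d element 20.8 kb downstream all 55 LPS points lie above their UT points and below the DMSO line, and at the Ms4a4b start all 58 LPS points at 30 min lie below their UT points.

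The level under each CKI was compared with DMSO by 1 coefficient over all times. A call needed an adjusted p under 0.05 and a log2 difference over 0.5 in size. DMSO libraries lie outside the runs of the CKIs, so these values cannot tell the effect of a CKI from a difference between blocks of columns. The median over all pairs of CRE and CKI was 0.39 over UT and LPS and 0.41 over UT and IL-4, and member values stand against these shifts. Over UT and LPS, 864 of 2552 pairs of member and CKI (33.9%) were called, against 36.4% of all pairs, and 707 were lower than DMSO, against 4.04% of all pairs. Over UT and IL-4, 898 pairs (35.2%) were called, against 39.2%, and 539 were lower, against 3.03%. Most called pairs over all CREs were thus higher than DMSO, and most called member pairs lower. The sign went with the level of the element. Among the 22 members with the lower DMSO mean (32 to 175), 88 pairs were lower and 150 higher over UT and LPS, and among the 22 with the higher mean (175 to 1038), 619 were lower and 7 higher.

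Named by the median over CKIs, the lowest members over UT and LPS were the elements 21.2 kb upstream of Ms4a6b at -1.05 and 3.5 kb upstream of Ms4a6c at -1.01, with 41 and 52 CKIs called lower. The former lies in an intron of Gm8369, 138 bp from a coding start of that gene. The element 4.7 kb downstream of the Ms4a7 start followed at -0.98 with 37. The Ms4a7 start had a median of -0.97 and 45 CKIs called lower, the Ms4a6c start -0.81 and 48, and the Ms4a6d start -0.79 and 45. The highest was the element 24.9 kb upstream of Ms4a6d at 1.39 with 48 called higher, where the DMSO libraries of UT and LPS held 2 to 12. At that element the median was 0.30 with 2 called higher after quantile normalization, and over UT and IL-4 it was -0.20 with 0 called higher and 2 lower. At 3.5 kb upstream of Ms4a6c the lowest value was that of Omipalisib, an inhibitor of PI3K and mTOR, at -2.01 and at -1.59 after quantile normalization. This CKI belongs to run 1, which had the lowest median contrast (11.2), and the part of contrast in its value was not tested.

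These counts depended on the reference. After quantile normalization, which gives all libraries the same distribution of values, 402 pairs were called over UT and LPS, 400 of them lower, against 4.63% and 2.63% of all pairs. Over UT and IL-4, 456 were called and 440 were lower, against 6.58% and 3.77%. With the mean of all compounds in place of DMSO, 113 were called over UT and LPS and 66 were lower, against 2.78% and 1.52%. Over UT and IL-4 it was 159 with 71 lower, against 3.98% and 1.28%. The contrast of 53.0 to 134 in DMSO and 3.34 to 67.2 in CKI libraries stands beside these counts, and its part in them was not tested.

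Inhibitor families were compared with the other CKIs by their level in the stimulated libraries, with the run of columns in the model. No member passed an adjusted p under 0.05 for the JAK, RAF/MEK/ERK, PI3K/mTOR/AKT or p38 family after either stimulus in limma. Over all CREs, calls were made at 0.0%, 0.0%, 0.00507% and 0.0% after LPS and at 0.0%, 0.0%, 0.00338% and 0.0% after IL-4. At an unadjusted p under 0.05, 0, 2, 3 and 4 members differed after LPS, against 3.38%, 12.9%, 9.04% and 24.5% of all CREs, and 6, 1, 5 and 2 after IL-4, against 4.73%, 4.5%, 10.1% and 3.49%.

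JAKs carry the IL-4 signal, so the 6 JAK inhibitors (Filgotinib, Ruxolitinib, Tofacitinib, Momelotinib, Pacritinib and BMS911543) were examined at the elements with the largest IL-4 rises. The family difference after IL-4 was -0.16 ± 0.11 (SE) at the Ms4a4a start, -0.13 ± 0.09 at 19.6 kb and -0.07 ± 0.11 at 5.1 kb upstream of it, and -0.16 ± 0.11 at 24.9 kb upstream of Ms4a6d, each with an adjusted p of 1.00. These family values compare levels over all stimulated libraries and are not changes from own UT. In a fit of the difference from own UT, 0 of 44 members were called for the JAK family after IL-4. All 6 JAK inhibitors were higher after IL-4 than in their own UT at each of these 4 elements. At the Ms4a4a start the log2 difference at 2 h ranged from 0.17 for Filgotinib (185.5 in UT and 210 after IL-4) to 1.96 for Tofacitinib (121 and 486), with 1.44 for Ruxolitinib (156.5 and 433). At 24.9 kb upstream of Ms4a6d it ranged from 0.56 for BMS911543 to 2.71 for Tofacitinib. The lowest unadjusted p of the JAK family was at 21.8 kb downstream of Ms4a6b (difference -0.45 ± 0.12, adjusted p = 0.532). A missed threshold does not show that these CKIs acted like the others.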

How the data were processed

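H3K27ac ChIP-seq of BMDMs was measured in 564 libraries. The authors removed adapters, trimmed reads to 51 bases, mapped them to mm10 with ShortStack, counted them around the summits of ATAC-seq peaks and scaled each library by peaks that did not vary. Per the submitters' processing notes, Bowtie and SAMtools were also used, without versions there. Reads with several matches can be placed by ShortStack at any of them, which bears on the repeated words of 51 bases. The authors rounded their normalized read counts to whole numbers before they were deposited, and these were treated as a score. No count model was therefore applied, and the depth is unknown. The methods describe a window of fixed size around each summit, whereas members are 1527 to 3747 bp wide in the deposited table, a mismatch that was not resolved.

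Groups came from the treatment labels. UT libraries, labelled 4 h and titled time 0, started both time courses. Libraries with the suffix b were taken as further libraries of their CKI, stimulus and time. CKIs fall into 6 consecutive runs of columns, used as a technical batch only. DMSO libraries form a block of their own and lie in none of these runs. DMSO replicates correlated at r = 0.960 to 0.982 and none were identical. Samples of the same replicate number did not deviate together, with correlations of -0.087 to 0.066 over 36 pairs of groups.

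Tests were run on log2(value + 5) in R 4.3.3 (limma 3.58.1, mean trend), for elements with a mean of at least 10, with Benjamini-Hochberg adjustment over all elements tested (for CKI effects, within each CKI). Time courses used a moderated F-test over 4 times. LPS against IL-4 was tested in all 18 DMSO libraries. The LPS and IL-4 comparisons share the UT libraries. CKI effects came from 324 LPS and UT or 315 IL-4 and UT libraries with time and compound as factors. Families were tested over 58 CKIs, 1 value each, with the run in the model. The pipeline was tested on simulated data. Sequences came from GRCm38.p6 and RefSeq. Some items are not reported here.

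Elements were named by rule: those at or nearest a start, and the 3 largest rises and falls after each stimulus, with others by count or as stated. Members and lists were chosen with earlier results of these data known. Alternatives were another pseudocount, no filter, quantile normalization, a replicate block, a threshold of 0.5, each replicate left out and other references.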

Additional observations from a re-analysis of the deposited data

Results flagged for a closer look

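At 6 elements both time courses were called, LPS and IL-4 differed from UT by more than 1 on the log2 scale in opposite directions at the same time, and the direct test of LPS against IL-4 called the difference. At each of these times both replicates of either stimulus lay on their side of both UT values. The direct call and the sides of the replicates follow largely from the rule that picked these elements. The share of all CREs that meet this rule is not given, so the count cannot be set against it. The log2 difference of LPS minus IL-4 at 30 min was -3.71 at 3.0 kb upstream of Ms4a4a, -3.23 at the Ms4a4a start, -2.99 at 7.0 kb upstream of Ms4a4a, -2.57 at 13.9 kb upstream of Ms4a7 and -2.51 at 15.1 kb downstream of Ms4a6b, where LPS was below and IL-4 above UT. At 1 h it was -2.16 at the Ms4a4a start and -2.32 at 13.9 kb upstream of Ms4a7. In the opposite direction, with LPS above and IL-4 below UT, it was 4.69 at 2 h and 5.0 at 4 h at 23.8 kb upstream of Ms4a6b. Groups of 2 replicates were too small for a test of single outlying libraries.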

How the results depend on the processing

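The member counts of the DMSO time courses and of LPS against IL-4 moved by less than 1.5 times under every other setting tried except a lower threshold after IL-4. At a log2 threshold of 0.5, 28 members were called after IL-4 in DMSO libraries, against 18, and 21 in CKI libraries, against 12. In CKI libraries of run 6 alone, a split added after the data were seen, 7 were called after IL-4. Shares of all CREs at the threshold of 0.5 and in run 6 alone are not given, so these counts have no comparison. Pairs of member and CKI called over UT and LPS fell from 864 to 402 under quantile normalization and to 113 with the mean of all compounds as reference. Over UT and IL-4 they fell from 898 to 456 and 159. The cause was not tested. Without 1 library at a time, 37 to 39 members were called after LPS, 16 to 19 after IL-4 and 43 to 43 for LPS against IL-4. Without replicate 1 or without replicate 2 of all DMSO groups, 640 to 656 pairs were called for the CKI effect over UT and LPS. Over UT and IL-4 it was 713 to 744. The elements 12.2 kb upstream of Ms4a4b and 4.9 kb upstream of Ms4a6b each lost the LPS call without 1 library (LPS 2 h replicate 2 and LPS 30 min replicate 1). After IL-4, the element 10.6 kb downstream of Ms4a7 lost its call without replicate 1 of IL-4 2 h (-0.72) or of UT (-0.97). So did 4.9 kb upstream of Ms4a6b without the former (-0.88), and 15.1 kb downstream of Ms4a6b without IL-4 30 min replicate 2 and under quantile normalization. Calls were gained without 1 library after LPS at 4.7 kb downstream of Ms4a7 (LPS 1 h replicate 2). After IL-4 they were gained at 23.5 kb downstream of Ms4a6d (IL-4 1 h replicate 2), 21.2 kb upstream of Ms4a6b (IL-4 2 h replicate 2), 9.3 kb downstream of Ms4a6b (IL-4 30 min replicate 1) and the second Ms4a4c start (UT replicate 2). With the replicate number as a block, 38, 18 and 43 members were called after LPS, after IL-4 and between them, with no call changed. The numbers did not pair the samples, since none of 36 correlations exceeded 0.1. Of 1409 refits of 94 named values, 1365 kept their direction and side of the threshold, 36 crossed to called, 8 lost the call and 0 changed sign. The depth behind the scaled values is unknown and limits the lowest elements.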
